A study of Mus musculus with 5 samples.

Results

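Prostate epithelial lineage transcription factors, the DNA-binding proteins that set and keep luminal, basal and general epithelial identity, were examined in prostate tumors of castrated and intact TripleTg mice. Their 10 genes (Foxa1, Trp63, Sox9, Klf5, Gata2, Gata3, Grhl2, Elf3, Ehf and Spdef) were taken by symbol from the 24527 genes of the deposited count table, and all 10 had a row and were tested. Every mouse carried hHGFtg:H11hMET/+:Ctnnb1L(Ex3)/+:PBCre4. A human HGF transgene is expressed ubiquitously, and a probasin-driven Cre turns on a human MET transgene and a stabilized β-catenin in prostate epithelium, so the controls carried the same alleles as the castrated mice. RNA-seq was performed on bulk prostate tissue of 3 mice castrated at 4 months and 2 intact mice, at 8 months of age. Castrated replicates 1, 2 and 3 gave libraries of 28015507, 18951782 and 20492061 counted reads, and the libraries of the 2 intact mice held 21560355 and 22853501.

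Luminal cells of the prostate face the lumen and secrete, and they depend on androgen signaling together with the forkhead factor FOXA1 and GATA factors. Basal cells lie on the basement membrane and depend on p63, the product of Trp63. KLF5, SOX9, GRHL2 and the ETS factors ELF3, EHF and SPDEF act in many epithelia, where they regulate growth, junctions and secretion. In bulk tissue, a lower level from fewer cells of a type cannot be told apart from less RNA of that gene in each cell.

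The tissue label was first compared with its markers. All 12 epithelial structural genes were tested, and the keratins Krt8 and Krt18 of simple epithelium were the most abundant of them. Their summed level was 4594, 3962 and 4488 CPM (counts scaled to library size with TMM, the trimmed mean of M-values) in castrated replicates 1, 2 and 3, and 6643 and 4037 CPM in intact replicates 1 and 2. Epithelial RNA was therefore abundant in every sample. Secretory prostate genes were not. Tgm4, a prostate secretory transglutaminase, was at 1342 CPM in intact replicate 2, but at 0.223 CPM in intact replicate 1 and at 0.417, 0.0534 and 0.0485 CPM in the castrated mice. Pbsn, the source of the promoter that drives Cre, was at 5.19 CPM in intact replicate 2, at 0 in intact replicate 1 and at 0.452 CPM or less in castrated mice, and Msmb had no count in any sample. In Tgm4 and Pbsn, the library labelled intact replicate 1 was thus as low as the castrated libraries. Other androgen-regulated genes did not show this. Tmprss2 was higher in both intact mice than in any castrated mouse, and Fkbp5, a steroid-induced chaperone, was at 87.5 CPM in intact replicate 1, above the castrated mice (45.8 to 71.3 CPM), and at 17.2 CPM in intact replicate 2, below them. Both intact mice also lay apart from all castrated mice in the summed proliferation genes (234 and 298 CPM against 53.8 to 99.9), mast cell markers (49.9 and 50.3 CPM against 184 to 281) and neuroendocrine markers (1.96 and 2.32 CPM against 20.7 to 35.3). The chi-square per gene of the counts was 137 between castrated replicate 1 and intact replicate 1, 141 between castrated replicates 2 and 3 and 348 between the intact libraries. Across genes, the log2 CPM of these pairs correlated at 0.922, 0.937 and 0.848. Whether the dissected tissue differed between the intact mice was not tested, and the fold changes of the 10 factors and the counts of the gene lists are given below without each intact mouse.

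None of the 10 factors passed the test for a difference between castrated and intact tumors, and for every one of them the values of the 2 groups overlapped. The larger differences lay between the 2 intact tumors. Gata3, Trp63, Gata2 and Foxa1 were lowest in intact replicate 1 and highest in intact replicate 2, with the castrated mice in between. Spdef was ordered the other way, and Sox9 and Klf5 lay within a narrow range in all 5 tumors. A gene was called where its Benjamini-Hochberg adjusted p from the quasi-likelihood test of edgeR was under 0.05 and its log2 fold change was above 1 in size, and of 14612 genes tested 0 (0%) were called, and the smallest adjusted p was 0.320. At an unadjusted p under 0.05, 2079 genes (14.2%) passed, and 0 of 10 factors did. Castrated values lay above all intact values for 17.0% of genes tested and below them for 16.1%, against 0 of 10 factors in each direction. The median log2 fold change, castrated minus intact, was -0.21 over the 10 factors and -0.03 over all genes tested. DESeq2 called 989 genes, the edgeR likelihood ratio test called 369 and limma voom called 0, and none of these was one of the 10 factors.

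**Figure D1:**
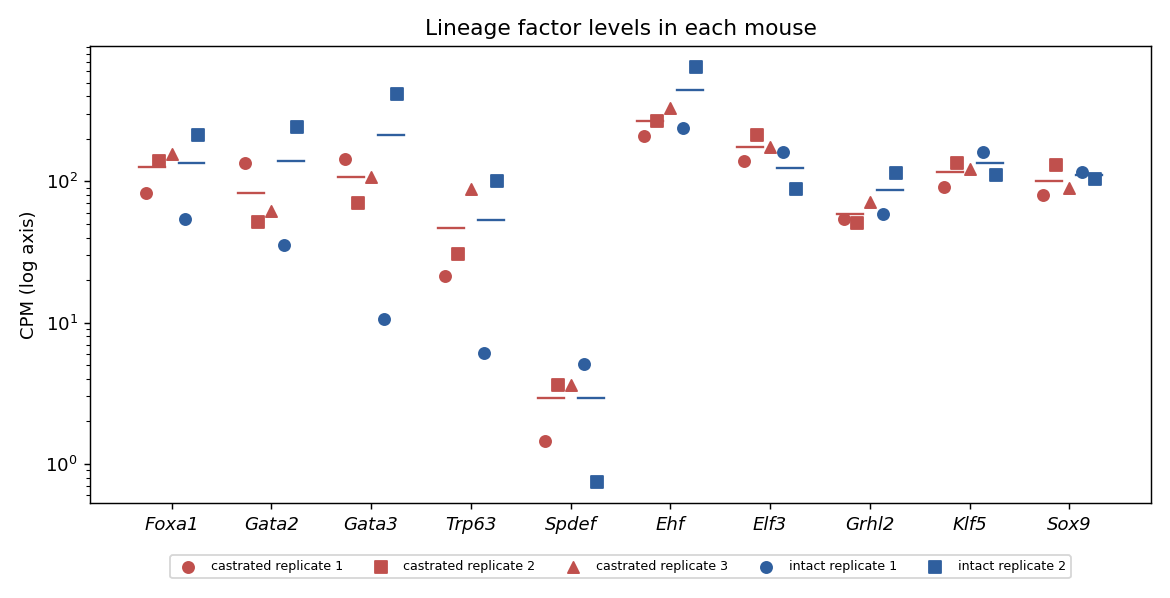
CPM on a log axis for each of the 10 factors, with 1 point per mouse (castrated in red, intact in blue) and a bar at the mean of each group. The 2 intact mice lie farthest apart for Gata3 (10.6 and 416 CPM) and Trp63 (6.07 and 101 CPM), and the groups overlap for every factor.

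Among the luminal factors, Foxa1 (chr12:57540628-57546111, minus strand, coordinates of mm10) encodes a forkhead pioneer factor that opens chromatin in luminal cells. It was at 82.9, 139 and 156 CPM in castrated replicates 1, 2 and 3, and at 54.1 and 214 CPM in intact replicates 1 and 2. The intact mice stood on either side of all castrated mice. The log2 fold change was -0.09 ± 0.62 (SE; edgeR adjusted p = 0.958), with a 95% interval from -1.66 to 1.47, so that a change of more than 2-fold in either direction is within the interval.

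Gata2 (chr6:88193891-88207032, plus strand), a zinc finger factor of luminal prostate cells, was at 135, 51.6 and 62.1 CPM in castrated replicates 1, 2 and 3. In intact replicates 1 and 2 it was at 35.5 and 244 CPM. Castrated replicate 1 was above the other two castrated mice, which was not the case for Foxa1. Its log2 fold change was -0.76 ± 0.85 (SE; edgeR adjusted p = 0.715, 95% interval -2.91 to 1.40).

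Gata3 (chr2:9857078-9878600, minus strand), its paralog and a factor for luminal differentiation and orderly division in the prostate and the mammary gland, had the widest range of all 10 factors. Its level was 145, 70.6 and 108 CPM in castrated replicates 1, 2 and 3. It was 10.6 CPM in intact replicate 1 and 416 CPM in intact replicate 2, from 238 and 8984 counts, so counting error is small against this difference. The intact mice differed by 5.28 on the log2 scale (with a prior count of 2), a difference exceeded by 0.855% of genes tested. The log2 fold change between the groups was -0.99 ± 1.26 (SE; edgeR adjusted p = 0.748, 95% interval -4.18 to 2.21).

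Spdef (chr17:27714446-27731003, minus strand), an ETS factor of prostate luminal cells and of goblet cells in other epithelia, was the factor with the least RNA. It had 42, 68 and 75 counts in castrated replicates 1, 2 and 3, or 1.46, 3.63 and 3.64 CPM. In intact replicates 1 and 2 it had 114 and 16 counts, or 5.09 and 0.741 CPM. It was the single one of the 10 factors that was highest in intact replicate 1 and lowest in intact replicate 2. The log2 fold change was -0.01 ± 0.92 (SE; edgeR adjusted p = 0.999, 95% interval -2.34 to 2.33).

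The starts of these 4 genes are shown because their levels are ordered alike (Foxa1, Gata2, Gata3) or in reverse (Spdef) in the intact mice. The RefSeq promoter table on GRCm38.p6, the build called mm10 in the count table, held entries for 5 of the 10 genes. The 250 bases before each start are given 5′ to 3′ on the strand of the gene, with motif matches in capitals. The Foxa1 stretch is on the minus strand at chr12:57546112-57546361, that of Gata2 on the plus strand at chr6:88193641-88193890, that of Gata3 on the minus strand at chr2:9878601-9878850, and that of Spdef on the minus strand at chr17:27728952-27729201.
Foxa1: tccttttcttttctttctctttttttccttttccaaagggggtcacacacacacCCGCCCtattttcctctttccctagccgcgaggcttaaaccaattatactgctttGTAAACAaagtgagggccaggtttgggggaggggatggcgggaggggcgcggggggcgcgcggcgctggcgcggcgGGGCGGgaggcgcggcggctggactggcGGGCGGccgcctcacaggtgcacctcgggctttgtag
Gata2: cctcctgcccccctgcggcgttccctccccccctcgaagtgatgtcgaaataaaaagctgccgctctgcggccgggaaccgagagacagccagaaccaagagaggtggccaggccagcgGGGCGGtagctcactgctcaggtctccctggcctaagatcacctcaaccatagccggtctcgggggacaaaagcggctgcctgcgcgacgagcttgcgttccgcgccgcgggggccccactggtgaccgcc
Gata3: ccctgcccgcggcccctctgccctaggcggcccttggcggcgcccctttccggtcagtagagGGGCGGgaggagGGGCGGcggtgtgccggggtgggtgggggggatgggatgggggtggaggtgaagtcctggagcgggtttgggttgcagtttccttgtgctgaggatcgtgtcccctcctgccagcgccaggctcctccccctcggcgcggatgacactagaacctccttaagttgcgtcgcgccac
Spdef: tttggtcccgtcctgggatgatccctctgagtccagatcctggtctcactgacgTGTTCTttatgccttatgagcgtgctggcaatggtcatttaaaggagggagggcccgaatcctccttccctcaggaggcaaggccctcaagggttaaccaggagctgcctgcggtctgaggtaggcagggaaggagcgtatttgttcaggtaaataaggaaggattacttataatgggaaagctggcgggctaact
Both strands were searched for 7 motifs by their exact letters: the GATA factor motif (AGATAA), TCF/LEF (CTTTGAT), forkhead (GTAAACA), ETS (CCGGAAG), Grainyhead (AACCNGTT), GC box (GGGCGG) and steroid response half-site (AGAACA). Foxa1 held 1 forkhead match, 141 to 135 bases before its start, on the strand of the gene, and 3 GC boxes. Of all 32851 promoters in the table, 3.17% held the forkhead letters and 32.7% a GC box. This entry of Gata2 held 1 GC box and Gata3 held 2. The second Gata2 entry, at chr6:88198414-88198663 on the plus strand before a start 4773 bases inside the gene, held 2. The Spdef stretch lies before an internal start, 2052 bases inside the annotated gene, and not at its 5′ end. It held the steroid response half-site on the opposite strand, 196 to 191 bases before its start. On either strand and anywhere in the 250 bases, 16.1% of promoters held these letters. The Elf3 entry at chr1:135258473-135258722 on the minus strand held none of the 7. GATA, TCF/LEF, ETS and Grainyhead letters were in none of the 6 entries, against 9.99%, 3.21%, 6.91% and 1.79% of all promoters. A match of letters is a description and not a binding site.

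Trp63 (chr16:25683765-25892088, plus strand) encodes p63, the factor on which basal cells of stratified and glandular epithelia depend. It was at 21.5, 30.8 and 88.0 CPM in castrated replicates 1, 2 and 3, and at 6.07 and 101 CPM in intact replicates 1 and 2. Castrated replicate 3 came close to intact replicate 2, and intact replicate 1 was lowest of all. The log2 fold change was -0.19 ± 1.18 (SE; edgeR adjusted p = 0.955, 95% interval -3.17 to 2.79). The gene has 8 annotated transcripts in GENCODE. Gene counts do not separate its long form from the short ΔN form that marks basal cells.

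Basal and p63 target genes were set beside Trp63. Of 7 p63 target genes, 6 were higher in intact replicate 2 than in intact replicate 1, 5 of them by more than 1 on the log2 scale. Their summed level was 547, 510 and 849 CPM in castrated replicates 1, 2 and 3, and 334 and 1068 CPM in the intact mice. This is the same order at its ends as Trp63, with intact replicate 1 lowest, then the castrated mice with replicate 3 on top, and intact replicate 2 highest. Krt5, the basal keratin and the most abundant of them, was at 127, 90.2 and 289 CPM in castrated replicates 1, 2 and 3, and at 28.8 and 403 CPM in intact replicates 1 and 2. Its partner Krt14 was at 14.2 and 139 CPM in the intact mice, and Dsc3, a desmosomal cadherin, differed by 5.08 on the log2 scale and had a log2 fold change against castration of 1.80. None of the 7 passed the test against castration, also at an unadjusted p under 0.05, and their median log2 fold change was 0.09. Perp, a p53 and p63 target in cell adhesion, had a log2 fold change of -0.50.

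The 9 basal structural genes did not form a single pattern. Itga6 was the most abundant of them, and 6 were higher in intact replicate 2 by more than 1 on the log2 scale while 3 were lower by as much. At an unadjusted p under 0.05, Krt15 was higher in castrated mice (log2 fold change 2.39) and Itga6, the α6 integrin, was lower (-1.16), and neither passed after adjustment (edgeR adjusted p = 0.320 and 0.340). The list summed to between 1306 and 2049 CPM over the 5 mice.

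Ehf (chr2:103263433-103303196, minus strand) and Elf3 (chr1:135253574-135258472, minus strand) encode related ETS factors of epithelia and were the 2 factors with the highest mean CPM. Ehf was at 210, 268 and 329 CPM in castrated replicates 1, 2 and 3, and at 239 and 648 CPM in intact replicates 1 and 2. Intact replicate 2 stood alone, and intact replicate 1 lay among the castrated mice. Its log2 fold change was -0.72 ± 0.47 (SE; edgeR adjusted p = 0.523, 95% interval -1.92 to 0.47). Elf3 was at 139, 214 and 175 CPM in castrated replicates 1, 2 and 3, and at 162 and 88.7 CPM in intact replicates 1 and 2. Here intact replicate 2 was the lowest sample. Elf3 was the single factor with a positive log2 fold change, 0.49 ± 0.35 (SE; edgeR adjusted p = 0.555, 95% interval -0.39 to 1.37). Compared per length, as TPM (counts divided by gene length and scaled to the same total in each sample), the level of Ehf was 0.687, 0.568 and 0.854 times that of Elf3 in castrated replicates 1, 2 and 3, 0.671 times in intact replicate 1 and 3.32 times in intact replicate 2.

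Grhl2 (chr15:37233036-37363568, plus strand), a Grainyhead factor that keeps epithelial junction genes active, was at 54.1, 50.3 and 71.4 CPM in castrated replicates 1, 2 and 3, and at 59.1 and 115 CPM in intact replicates 1 and 2. Intact replicate 2 was above the rest, which lay close together. The log2 fold change was -0.57 ± 0.35 (SE; edgeR adjusted p = 0.490, 95% interval -1.44 to 0.30), the smallest adjusted p of the 10. An antisense gene, Gm16136, overlaps an exon of Grhl2 and had 404, 399 and 576 counts in castrated mice and 312 and 1972 counts in intact replicates 1 and 2. The strand used in counting is not given in the sources used here, so reads of this pair cannot be told apart. Exons of Gata3 and Elf3 also overlap an antisense gene in GENCODE (Gm13256 and Gm26642).

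Of 5 GRHL2 target genes, 2 were higher in intact replicate 2 than in intact replicate 1, and none by more than 1 on the log2 scale. Cdh1 (E-cadherin) and Cldn4, the most abundant of them, were at 886 and 974 CPM in intact replicate 1, where Grhl2 was at 59.1 CPM, and at 687 and 446 CPM in intact replicate 2. Their summed level was 1290, 1216 and 1259 CPM in castrated replicates 1, 2 and 3, and 2068 and 1356 CPM in the intact mice. Cldn4 had a log2 fold change of -0.999 and Rab25, a small GTPase of epithelial vesicles, one of -0.69, and 0 of the 5 passed at an unadjusted p under 0.05. Of the 12 epithelial structural genes, 1 passed, Esrp2, a splicing factor, which was lower in castrated mice (log2 fold change -0.84, unadjusted p = 0.00602, edgeR adjusted p = 0.320).

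Klf5 and Sox9 were the most even of the 10. Klf5 (chr14:99298691-99313409, plus strand), a zinc finger factor of proliferating epithelium, was at 91.4, 134 and 122 CPM in castrated replicates 1, 2 and 3, and at 160 and 111 CPM in intact replicates 1 and 2. Sox9 (chr11:112782210-112787757, plus strand), an HMG-box factor of epithelial progenitors and prostate buds, was at 79.6, 131 and 90.4 CPM in castrated replicates 1, 2 and 3, and at 117 and 104 CPM in the intact mice. The lowest sample of both genes was castrated replicate 1. Klf5 had a log2 fold change of -0.23 ± 0.27 (SE; edgeR adjusted p = 0.727) with a 95% interval from -0.92 to 0.46, and Sox9 one of -0.14 ± 0.27 (adjusted p = 0.847) with an interval from -0.83 to 0.55. These 2 intervals leave out a change of 2-fold or more, and are the narrowest of the 10. The proliferation list, by contrast, was lower in castrated mice for all 6 genes. Each had no overlap of the groups and an unadjusted p under 0.05. Over all genes tested, 16.1% lay lower in castrated mice without overlap, and 14.2% passed at that p in either direction. Mki67 and Top2a were the most abundant proliferation genes, and Bub1 and Ccnb1 had the largest log2 fold changes, -2.09 and -1.97. None of them passed after adjustment (edgeR adjusted p = 0.320 for each).

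Leaving out one intact mouse showed how much each factor's fold change rested on the other. With intact replicate 1 left out, Gata3 had a log2 fold change of -1.93 and Trp63 one of -1.09. Without intact replicate 2 the same values were 3.34 and 2.95. Gata2 went from -1.54 to 1.23, Foxa1 from -0.75 to 1.22, Ehf from -1.25 to 0.17 and Spdef from 1.98 to -0.81 in the same 2 fits. Klf5 went from 0.075 to -0.47. Elf3 (1.01 and 0.12), Grhl2 (-0.95 and -0.01) and Sox9 (-0.03 and -0.22) kept their signs. In both fits 0 of 10 factors were called, and the smallest edgeR adjusted p of a factor was 0.139, for Gata3. At an unadjusted p under 0.05, 4 factors passed without intact replicate 1 (Gata3, Grhl2, Elf3 and Ehf), as did 22.0% of genes tested in that fit. Without intact replicate 2, 3 factors passed (Foxa1, Trp63 and Gata3), as did 13.5% of genes tested. Gata3 is in both, with opposite signs.

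**Figure D2:**
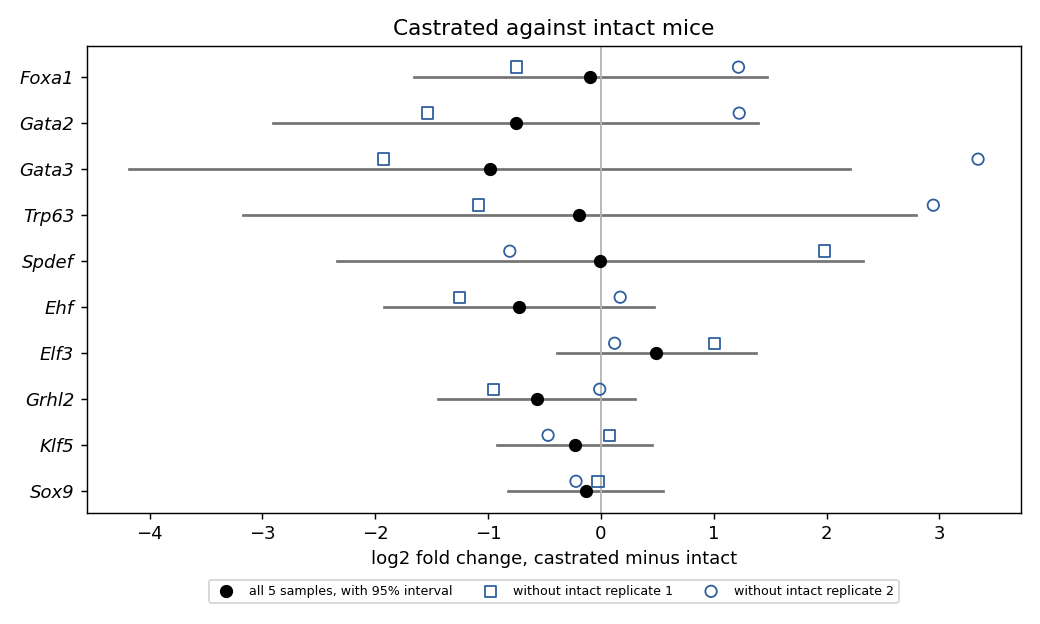
Log2 fold change, castrated minus intact, of each factor from all 5 samples (black points, with lines for the 95% interval) and with one intact mouse left out (squares without intact replicate 1, circles without intact replicate 2). Every interval includes 0, and the 2 open symbols of Gata3 lie at -1.93 and 3.34.

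The difference between the 2 intact mice is a difference between single animals and has no test. As a description, 5 of 10 factors (Foxa1, Trp63, Gata2, Gata3 and Ehf) were higher in intact replicate 2 by more than 1 on the log2 scale, against 15.1% of genes tested. Spdef, 1 of 10, was lower by as much, against 15.4%. The median absolute difference between the intact mice was 1.71 for the 10 factors and 0.57 for all genes tested. The range over the 3 castrated mice had a median of 0.82 for the factors and 0.57 for all genes tested. Of the 10 factors, 4 were lowest in intact replicate 1 and highest in intact replicate 2 of all 5 mice, an order that 9.30% of genes tested had, and Spdef had the reverse order, as did 7.98% of genes tested.

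Each factor was also set against the epithelial genes of its own sample, since the epithelial sum was higher in intact replicate 1. On this scale the intact difference of Gata3 was 6.01 (log2) and that of Trp63 4.77, while Sox9 (0.54) and Klf5 (0.19) were higher in intact replicate 2 and not lower as in CPM. Gata3 counts were 0.160% of the summed counts of the 12 epithelial structural genes in intact replicate 1 and 10.3% in intact replicate 2. In castrated replicates 1, 2 and 3 the share was 3.15%, 1.78% and 2.40%. For Trp63 the share was 0.0914% and 2.49% in the intact mice. Elf3, at 2.44% and 2.20%, was nearly equal in the intact mice on this scale, and castrated mice had 3.02%, 5.40% and 3.91%.

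The 20 other epithelial lineage factors, all of them tested, also differed between the intact mice, in both directions. In intact replicate 2, 10 of 20 were higher by more than 1 on the log2 scale, against 15.1% of genes tested, and 6 of 20 were lower by more than 1, against 15.4%. Sox4 had the highest mean level. Elf5, an ETS factor of secretory mammary and luminal cells, was at 1.46, 1.28 and 2.33 CPM in castrated mice and at 1.25 and 167 CPM in the intact mice. Intact replicate 2 alone was high. Elf5 had the largest log2 fold change of the list, -5.63, and did not pass after adjustment (edgeR adjusted p = 0.323).

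Other genes of this list were picked after their values were seen. Hoxb13, a homeobox factor of the prostate, was at 3.44 and 70.5 CPM in intact replicates 1 and 2, Grhl1 at 6.21 and 143 CPM, and Tfap2c at 0.759 and 44.1 CPM. Others of the list had the reverse order. Foxa2 was at 79.5 and 7.41 CPM in intact replicates 1 and 2, Sox2 at 111 and 11.3 CPM, Foxa3 at 8.57 and 0.185 CPM, Creb3l1 at 52.2 and 8.01 CPM and Sox4 at 430 and 188 CPM. In castrated replicates 1, 2 and 3, Foxa2 was at 97.3, 33.9 and 29.2 CPM and Sox2 at 178, 83.1 and 69.3 CPM, so that castrated replicate 1 was the highest sample for both. Per length, the ratio of the Foxa1 level to that of Foxa2 was 0.506 in intact replicate 1 and 21.5 in intact replicate 2, and 0.634, 3.06 and 3.96 in castrated replicates 1, 2 and 3. The ratio of Gata3 to Gata2 was 0.312 and 1.78 in the intact mice, and 1.12, 1.43 and 1.80 in castrated mice.

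**Figure D3:**
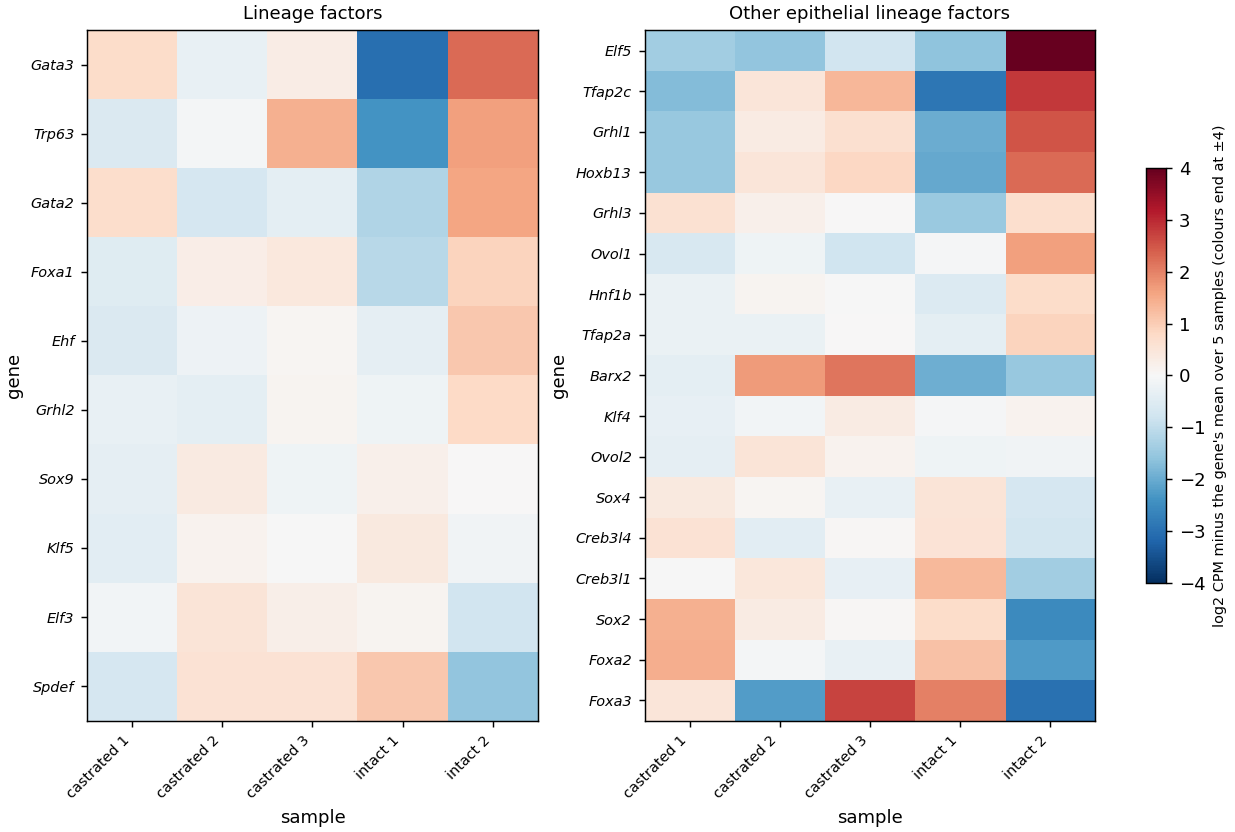
Log2 CPM minus the mean of each gene over 5 samples, for the 10 lineage factors (left) and 17 of the other epithelial lineage factors (right), with genes ordered by the difference between the intact mice and colours ending at ±4. The column of intact replicate 2 runs from high at the top to low at the bottom, and that of intact replicate 1 runs largely the other way.

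Against castration, 10 of the 20 other factors had a higher and 10 a lower log2 fold change, with a median of -0.01, and 0 were called. At an unadjusted p under 0.05, 4 of 20 passed, against 14.2% of genes tested. Barx2, a homeobox factor, was the higher one, at 4.798, 20.7 and 28.4 CPM in castrated replicates 1, 2 and 3, and at 1.56 and 2.18 CPM in the intact mice (log2 fold change 3.26, edgeR adjusted p = 0.320). The groups did not overlap for Barx2. Elf5 and Ovol1 were among the lower ones.

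Androgen-regulated and SPDEF-related genes were set beside the luminal factors. Of 6 androgen-regulated genes 3 were tested, and the list summed to 259, 258 and 240 CPM in castrated replicates 1, 2 and 3, and to 324 and 2472 CPM in the intact mice. Tgm4 and Tmprss2 were its most abundant genes. Tmprss2, a protease gene, was at 165, 206 and 170 CPM in castrated mice and at 231 and 304 CPM in the intact mice, with no overlap between the groups (log2 fold change -0.57, edgeR adjusted p = 0.359). Of 6 genes of the SPDEF goblet program 4 were tested, and Fcgbp and Clca1 were the most abundant. Clca1 was at 19.1, 39.9 and 64.7 CPM in castrated mice and at 1.61 and 10.9 CPM in the intact mice (log2 fold change 2.72, edgeR adjusted p = 0.340). Both intact values were thus below all castrated values, while Spdef itself overlapped. Fcgbp had a log2 fold change of 0.80.

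Markers of other cell types were measured because some of them use the same factors. GATA2 is also a factor of mast cells, and GATA3 of T cells. Mast cell markers, led by Kit and Tpsb2, summed to 184, 185 and 281 CPM in castrated replicates 1, 2 and 3, and to 49.9 and 50.3 CPM in the intact mice, and 7 of 8 were higher in castrated mice at an unadjusted p under 0.05. Over all genes tested, 14.2% passed at this p in either direction. Mcpt4 and Cma1 had the largest log2 fold changes of the mast cell markers, 5.28 and 4.45. The 2 intact mice, which differed by 2.78 in Gata2 on the log2 scale, had similar sums, but single markers differed in both directions. Kit was at 32.7 and 13.3 CPM in intact replicates 1 and 2 and Hdc, the enzyme of histamine synthesis, at 7.01 and 29.7 CPM. The part of mast cells in the Gata2 values was not tested. T cell markers, led by Cd4 and Lck, summed to 20.1, 62.7 and 62.5 CPM in castrated mice and to 13.4 and 41.5 CPM in the intact mice, and 7 of 8 were higher in intact replicate 2. Cd5 and Cd28 had the largest log2 fold changes, 2.44 and 2.07, and 0 of 8 passed at an unadjusted p under 0.05. Castrated replicates 2 and 3 had a higher T cell sum than intact replicate 2, and 70.6 and 108 CPM of Gata3 against 416 CPM. The single markers did not all follow the sum. Cd8a (1.92 and 2.38 against 10.1 CPM) and Cd3d (2.94 and 3.35 against 4.21 CPM) were lower in these castrated mice, and the other markers were higher. The part of T cells in the Gata3 values was not tested.

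Urothelium, the lining of the bladder and urethra next to the prostate, expresses GATA3, p63, ELF3 and KLF5. Its 5 markers, led by Upk1b and Upk1a, summed to 47.2, 81.9 and 105 CPM in castrated replicates 1, 2 and 3, and to 44.9 and 143 CPM in the intact mice. Of these markers 4 were tested. Upk1b was at 7.14 and 126 CPM in intact replicates 1 and 2, and Krt20 at 25.9 and 1.62 CPM, in opposite directions. Upk1a was higher in castrated mice at an unadjusted p under 0.05 (log2 fold change 2.73, edgeR adjusted p = 0.326), and Upk1b had a log2 fold change of -1.05. In the intact mice the urothelial sum was higher in replicate 2, as Gata3 and Trp63 were, and most of that sum was Upk1b. Upk3a, at 9.69 and 2.27 CPM in intact replicates 1 and 2, was lower there, as was Krt20. In castrated mice the sum rose from replicate 1 to 3, as did Trp63, while Gata3 was highest in replicate 1 (145 CPM). The part of urothelium in the Gata3 and Trp63 values was not tested. None of 6 seminal vesicle genes was tested, and their sum, led by Svs4 and Svs5, was 7.46 CPM in intact replicate 2 and 0.174 CPM or less elsewhere.

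The macrophage, smooth muscle, fibroblast and neuroendocrine lists were mostly higher in castrated mice before adjustment. Over all genes tested, 14.2% passed at an unadjusted p under 0.05 in either direction. All 8 macrophage markers, 6 of 7 smooth muscle markers, 4 of 6 fibroblast markers and 5 of 6 neuroendocrine markers tested were higher in castrated mice at an unadjusted p under 0.05, and 0 were called after adjustment. Macrophage markers, led by Cd68 and C1qa, summed to 1022, 2602 and 1321 CPM in castrated replicates 1, 2 and 3, and to 540 and 591 CPM in the intact mice, and Cd68 and Cd163 had the largest log2 fold changes, 2.52 and 2.24. Smooth muscle markers, led by Acta2 and Tagln, summed to 385, 691 and 650 CPM against 237 and 150 CPM, with the largest log2 fold changes for Myh11 and Cnn1, 3.70 and 3.66. Fibroblast markers, led by Dcn and Col1a2, summed to 3473, 4808 and 6627 CPM against 3032 and 1759 CPM, with 2.35 for Dcn and 2.23 for Lum. Neuroendocrine markers, led by Chgb, summed to 20.7, 30.0 and 35.3 CPM against 1.96 and 2.32 CPM, with 5.25 for Chga and 4.65 for Scg3.

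Adipocyte markers separated single mice. The 9 markers, led by Fabp4 and Cfd, summed to 53.9 CPM in castrated replicate 1, and to 693 and 649 CPM in castrated replicates 2 and 3. The intact mice had 36.0 and 90.7 CPM. Of these markers 6 passed at an unadjusted p under 0.05, all higher in castrated mice, against 14.2% of genes tested in either direction. Cfd and Lep had no count in either intact mouse, so no fold is given for them. Endothelial markers, led by Cdh5 and Pecam1, summed to 414, 298 and 344 CPM in castrated mice and to 449 and 186 CPM in the intact mice, and 2 of 7, Tek and Kdr, were higher in castrated mice at an unadjusted p under 0.05 (log2 fold changes 1.36 and 0.94). The part of any of these cell types in the levels of the 10 factors was not tested.

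The lists were counted again without each intact mouse, and 0 genes of any list were called in either fit. At an unadjusted p under 0.05, all 6 proliferation genes were lower in both fits, and 7 and 6 of 8 mast cell markers, 7 and 5 of 7 smooth muscle markers and 4 and 5 of 6 neuroendocrine markers were higher without intact replicates 1 and 2, respectively. Other lists had fewer or more such genes than with all mice. Fewer macrophage, adipocyte and fibroblast markers passed in both fits, but their fold changes did not shrink to the same extent. The median log2 fold change of macrophage markers was 1.44 and 1.65 without intact replicates 1 and 2, against 1.49 with all mice. That of fibroblast markers was 1.95 and 1.51, against 1.69. Of 9 adipocyte markers, 8 and 9 had a higher log2 fold change in these fits. Endothelial markers that were higher went from 2 to 5 of 7 without intact replicate 1 and to 0 without intact replicate 2, and T cell markers from 0 to 4 of 8 without intact replicate 2. Epithelial structural genes that were lower went from 1 to 5 of 12 without intact replicate 2. Of the p63 target genes, 1 was lower without intact replicate 1 and 3 were higher without intact replicate 2. Of the other lineage factors, 3 were higher and 6 lower without intact replicate 1, against 3 higher and 1 lower without intact replicate 2. Elf5 had log2 fold changes of -6.60 and 0.44 in these 2 fits, so that its lower level in castrated mice rested on intact replicate 2. Barx2 (3.06 and 3.52), Krt15 (1.96 and 3.02), Clca1 (1.93 and 4.68) and Upk1a (2.16 and 3.73) had positive log2 fold changes in both fits. Those of Itga6 (-1.59 and -0.51), Esrp2 (-0.76 and -0.90), Ovol1 (-2.16 and -0.49) and Tmprss2 (-0.73 and -0.36) were negative. With all mice the groups did not overlap for any of these genes, so their signs were not free to turn.

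**Figure D4:**
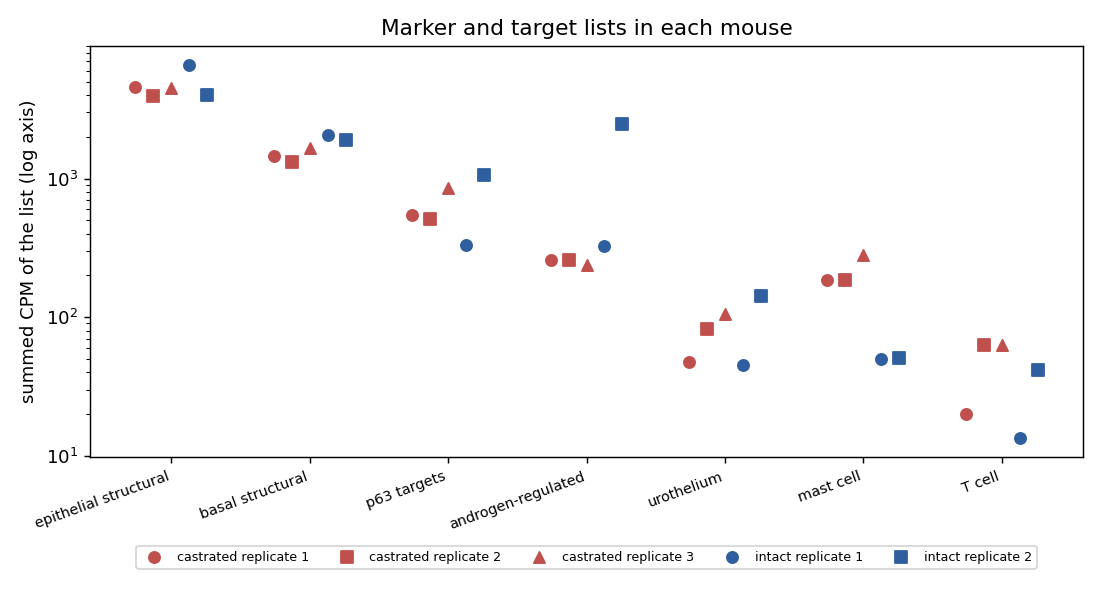
Summed CPM on a log axis of 7 gene lists, with 1 point per mouse (castrated in red, intact in blue). The p63 target and androgen-regulated lists are highest in intact replicate 2 (1068 and 2472 CPM), while the mast cell list is near 50 CPM in both intact mice.

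Levels were compared between factors per length, as TPM. In castrated mice the order was Elf3 (208 ± 45.7 TPM, SD, n = 3), Klf5 (158 ± 30.7), Ehf (144 ± 31.1), Foxa1 (93.1 ± 27.9), Gata3 (78.9 ± 27.1), Gata2 (58.3 ± 32.0), Sox9 (57.1 ± 16.0), Grhl2 (27.9 ± 5.04), Trp63 (18.1 ± 13.8) and Spdef (2.47 ± 1.06). From Elf3 to Sox9, the values of each factor overlapped with those of the next, and so did Grhl2 and Trp63. Sox9 lay above Grhl2, and Trp63 above Spdef, in all 3 castrated mice. The order was not shared by the intact mice. In intact replicate 1, Klf5 was the highest at 231 TPM and Gata3 was 8th at 8.21 TPM. In intact replicate 2, Ehf was the highest at 276 TPM, Gata3 was second at 241 TPM and Elf3 was 6th at 82.9 TPM.

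The genes closest in profile to each factor were found by the root mean square difference of log2 CPM, each centred on its own mean over the 5 samples. With 5 samples and 14612 genes, close profiles are to be found for most genes, and they are given as a description. For Gata3 they were Cldn8 (difference 0.20), a claudin of tight junctions at 7.95 and 310 CPM in the intact mice, and Xkrx (0.29). For Trp63 they were Tox (0.04), an HMG-box factor at 0.714 and 13.1 CPM in the intact mice, and Ddc (0.11). For Foxa1 they were Itgb6 (0.04), an epithelial integrin subunit, and Stat5b (0.07), a transcription factor of cytokine signaling. Those of Gata2 were farther from it, Rab39b (0.24) and Lratd1 (0.25). For Spdef they were Dhcr7 (0.12), the last enzyme of cholesterol synthesis, at 87.6 and 13.4 CPM in intact replicates 1 and 2, and Slc4a4 (0.14), a bicarbonate cotransporter. Ehf was closest to Frk and Vamp5 (0.08 for each), Grhl2 to Saal1 (0.03), Elf3 to Igsf8 (0.04) and Eepd1 (0.06), Klf5 to Peak1 (0.03) and Pogk (0.04), and Sox9 to Pank3 (0.03) and Zbtb42 (0.04). Among the 10 factors themselves, Klf5 and Sox9 (0.17) and Ehf and Grhl2 (0.21) were the closest pairs, and Gata3 and Spdef (2.62) the most distant.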

How the data were processed

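Bulk RNA-seq counts of 3 castrated and 2 intact TripleTg prostates were used, grouped by their labels, each from a separate animal. The authors depleted ribosomal RNA, and per the submitters' processing notes used Trimmomatic 0.39, STAR 2.7.9, HTSeq 2.0.2 and mm10. The deposited values are raw counts per gene without normalization, beside a gene length in kilobases (used only for TPM) and 1-based coordinates. The gene annotation and strand setting of the counting are not given in the sources used here.

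The filter kept the 14612 genes whose CPM exceeded 1 in 2 samples or more. TMM factors (0.945 to 1.04) were applied, and the quasi-likelihood F-test of edgeR 4.0.16 compared the groups, as in the study's methods but on counts, not TPM. Alternatives used DESeq2 1.42.0 and limma 3.58.1, all under R 4.3.3. The common dispersion was 0.238, so spread between mice, more than depth, set the precision for the 10 factors. Between any 2 samples the chi-square per gene was 137 or more, so replicates differed by more than sampling noise. The members and lists were chosen with earlier results of these data known. Named were all 10 factors, the 2 most abundant genes and the 2 with the largest fold changes of each list, and the 2 nearest profiles. Further genes of the lists were named after their values were seen. Alternatives were other tests, scalings, filters, TPM as input, a replicate block and leaving out each mouse. edgeR's newer quasi-likelihood fit was added after seeing the data. Some genes of the lists are not reported here, though they remain in the counts and sums over their lists.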

Additional observations from a re-analysis of the deposited data

How the results depend on the processing

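No factor was called under any setting, including those that left out a mouse (0 to 0 called). Over all genes, DESeq2 called 989 and the edgeR likelihood ratio test 369, and the fits leaving out one mouse called 0 to 1. The median log2 fold change of the factors ranged from -0.85 (without intact replicate 1) to 0.15 (without intact replicate 2). The lone intact mouse is then assumed to vary like the castrated ones. Leave-one-out log2 fold changes ranged from -0.75 to 1.22 for Foxa1, -1.09 to 2.95 for Trp63, -0.37 to 0.0052 for Sox9, -0.47 to 0.075 for Klf5, -1.54 to 1.23 for Gata2, -1.93 to 3.34 for Gata3, -1.25 to 0.17 for Ehf and -0.81 to 1.98 for Spdef, and signs did not change for Grhl2 and Elf3. With limma voom the sign turned for Foxa1 (0.18), Trp63 (0.63), Gata3 (0.64) and Spdef (0.36). Scaling to the epithelial genes, which moved the median of all genes from -0.03 to 0.19, turned Sox9 (0.12), Klf5 (0.060) and Spdef (0.51), of which Sox9 and Klf5 lie below that median. The replicate numbers do not pair the samples, which are different animals (correlation of deviations 0.15 and -0.05). The fit with the replicate block called 0 genes, with 940 at an unadjusted p under 0.05, and gave Trp63 0.041, Gata3 0.59 and Spdef 0.20. The cause of these sign changes was not tested. With a CPM above 1 in all samples, Spdef was not tested and 9 factors were.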
